A study of Mus musculus with 10 samples.

Results

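Transcripts of 9 complement components and regulators were examined in lens epithelia of transgenic mice with an active TGF-β1 in the lens. The genes were chosen by symbol (C3, C4b, Cfb, C1s1, C1ra, Cfi, Serping1, Cd55 and Cd59a), and all 9 were found among the 50763 genes of the count table. Lens epithelium was taken at 3 weeks of age from wild-type mice (WT, 3 libraries) and from the transgenic lines OVE853 (3 libraries) and OVE918 (4 libraries), all on the FVB/N background. Both lines are homozygous for a transgene in which the mouse αA-crystallin promoter drives a secreted, self-active human TGF-β1 in lens cells, and both develop anterior subcapsular cataract, a fibrotic plaque under the anterior capsule. Each library is a pool, of up to 9 mice in WT and OVE853 and up to 7 mice in OVE918, and it holds the whole epithelium rather than the plaque alone. WT carries no transgene, and each line is a transgenic family with its own integration, so that a difference between the lines may also be one between families.

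Complement is a cascade of plasma proteins that marks surfaces for removal and calls in immune cells. The C1 proteases and C4 start its classical arm, factor B drives the alternative arm, and both arms meet at the cleavage of C3, after which the terminal proteins build a pore. Most circulating complement is made by the liver, but many tissues transcribe some of its genes, and regulators in solution (factor I and C1 inhibitor) or on the cell membrane (Cd55 and Cd59) restrain it at successive steps.

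Total counts per library ranged from 24073311 to 28645174 in WT, from 27409730 to 31908525 in OVE853 and from 25342220 to 28562553 in OVE918. Transcripts listed for lens epithelium (6 genes, with Cryaa and Cryab) summed to a CPM (counts scaled to a common library size) of 153062 to 158172 in WT, 103575 to 118097 in OVE853 and 128003 to 195416 in OVE918. Every OVE853 library thus lay below WT in this sum, which was nearly all Cryaa and Cryab. Pax6 (430 to 463 CPM in WT, 435 to 473 in OVE853) and Foxe3 (424 to 764 and 724 to 836) overlapped WT in OVE853. Cdh1 (258 to 395 and 171 to 227) and Sox2 (72.0 to 76.1 and 60.4 to 63.4) lay below it. In OVE918, Pax6 (356 to 402 CPM) and Sox2 (56.3 to 63.1) lay below WT in every library. Foxe3 (513 to 651 CPM) and Cdh1 (192 to 277) overlapped WT there. Of the 6 genes, 0 were called differentially expressed in either line, and their part in the values that follow was not tested. Tgfb1 lay at 50.6 to 61.7 CPM in WT, 339 to 361 in OVE853 and 715 to 881 in OVE918. The transgene is of human sequence and reads were counted on the mouse gene, so transgenic and endogenous transcripts cannot be told apart there. The library WT replicate 3 stood apart in its retinal transcripts (9 genes, 479 CPM against 19.9 to 94.1 in the other libraries), and it was the highest WT library for 6 of the 8 members tested, where 40.4% of all genes had their highest WT value in it.

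Levels are given as CPM after TMM scaling, which allows a gene to be compared between libraries, and as FPKM (CPM per kilobase of exon, from unscaled totals) where genes are compared with each other. A gene was called differentially expressed (DEG) in edgeR's quasi-likelihood test over 11094 genes where its false discovery rate (FDR) did not exceed 0.05 and its level changed by 1 or more on the log2 scale in either direction. Of the 9 members, 8 reached the 2 FPKM in 5 libraries needed to enter the test, and Cd55 did not. Cfi (1.09 to 1.44 FPKM) and Cfb (0.39 to 0.92 FPKM) were under 2 FPKM in every WT library. Both entered through the transgenic libraries, where they were high, so their calls as elevated are not independent of that minimum.

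In OVE853, 5 of the 8 members tested were elevated, Cfi, C4b, C3, Cfb and Serping1, against 2.51% of all genes tested, and 0 of 8 were reduced, against 1.91%. In OVE918, 3 of the 8 were elevated, Cfi, Cfb and C4b, against 2.58% of all genes, and 0 of 8 were reduced, against 3.01%. By DESeq2 0 members were reduced in either line, and 1 member, Cd59a, lay below WT with an unadjusted p under 0.05 in each line. The 3 members elevated in OVE918 were elevated in OVE853 as well, which held for 1.8% of all genes tested. Each of these counts of elevated members includes Cfi and Cfb, which passed the FPKM minimum through the transgenic libraries. Without them, C4b, C3 and Serping1 were elevated in OVE853, and C4b alone in OVE918. The median log2 fold change of the members was 2.10 in OVE853 and 1.02 in OVE918, where the medians of all genes were -0.01 and 0.01. The 2 comparisons share their 3 WT libraries. All values compare pools of whole tissue, in which fewer cells of a type and less RNA per cell cannot be told apart.

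**Figure D1:**
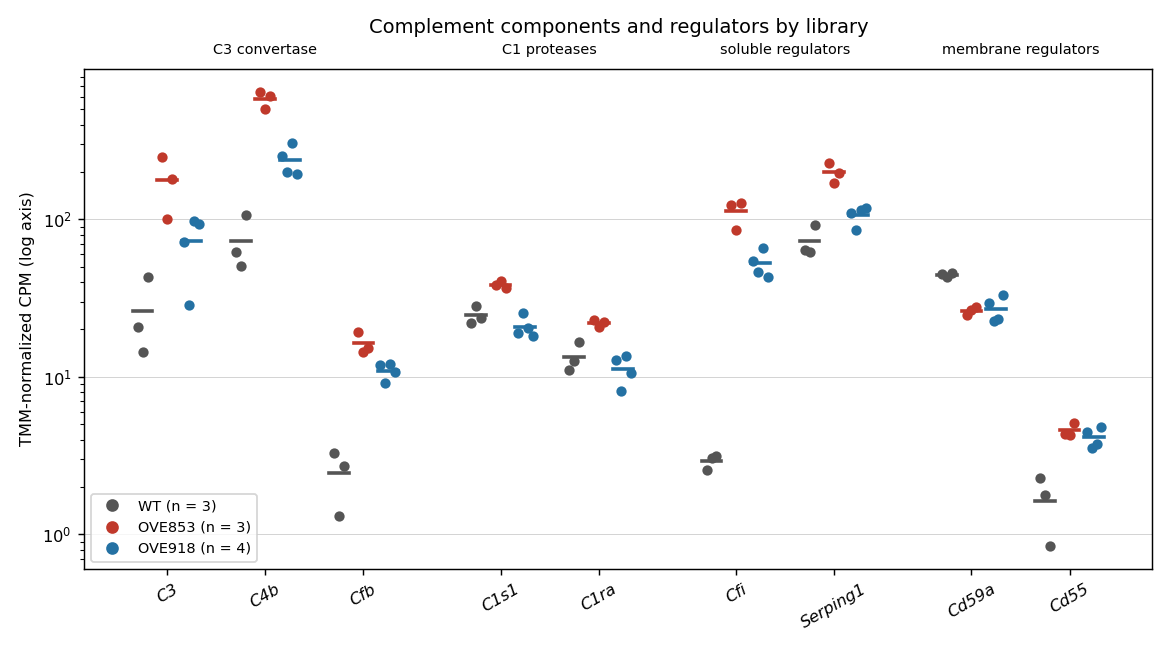
Level of each of the 9 members in every library, as TMM-normalized CPM on a log axis, grouped by role, where points are libraries and bars are group means (WT n = 3, OVE853 n = 3, OVE918 n = 4). Cfi had the widest gap to WT, with 2.55 to 3.16 CPM in WT against 42.9 to 128 CPM in the transgenic libraries, and Cd59a was lower in every transgenic library than in WT.

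C3 is the protein on which all arms of the cascade converge (chromosome 17, 57510964 to 57535155, minus strand, GRCm39). Its level was 20.8, 14.4 and 43.0 CPM in the WT libraries, 250, 101 and 180 in OVE853 and 72.2, 28.5, 98.0 and 93.7 in OVE918. Every OVE853 library lay above every WT library, whereas the second OVE918 library lay below WT replicate 3. C3 was elevated in OVE853, by 2.76 on the log2 scale (SE 0.58, FDR 0.0158), and without OVE853 replicate 1 it missed the FDR (2.43, FDR 0.0542). For OVE918 the log2 fold change was 1.48 (95% confidence interval 0.27 to 2.70, FDR 0.0892), which did not pass, and without OVE918 replicate 2 it did (1.75, FDR 0.0353). Relative to its mean, C3 varied more within each group than any other member.

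The stretch before its transcription start is shown because C3 was elevated, beside that of Cd59a, the member that lay below WT in both lines. RefSeq promoter windows were at hand for 5 members (C3, C1s1, C1ra, Cd55 and Cd59a) and not for Cfi, Cfb, C4b and Serping1. The first 200 of the 250 bases before the start are printed 5′ to 3′ on the gene's own strand in build GRCm38.p6, C3 at chr17:57228187-57228386 (minus strand) and Cd59a at chr2:104095551-104095750 (plus strand). Capitals mark the match to an IRF motif.
C3: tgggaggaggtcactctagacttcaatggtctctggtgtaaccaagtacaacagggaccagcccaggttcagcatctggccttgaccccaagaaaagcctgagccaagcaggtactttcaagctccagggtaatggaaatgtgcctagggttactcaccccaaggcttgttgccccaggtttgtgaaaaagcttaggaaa
Cd59a: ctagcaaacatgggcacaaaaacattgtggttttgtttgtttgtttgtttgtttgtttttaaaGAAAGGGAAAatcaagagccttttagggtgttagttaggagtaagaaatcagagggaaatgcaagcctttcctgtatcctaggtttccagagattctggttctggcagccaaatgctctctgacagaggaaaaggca

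Motifs were searched on both strands of the 250 bases, as STAT (TTCNNNGAA), AP-1 (TGANTCA), IRF (GAAA repeated after a gap of 2 bases), SMAD (CAGACA or GTCTAGAC), CEBP (TTGCGCAA or TTGCACAA) and the NF-kappaB motif. The IRF match in Cd59a, 187 bases before the start, was the only match in the 5 members' windows, and it overlapped no other motif. Among 32851 promoters of the table, 2.98% held the IRF motif, 7.02% STAT, 6.75% AP-1, 17.1% and 0.167% the respective SMAD motifs, 7.25% NF-kappaB and 0.164% and 0.895% the CEBP motifs. These matches describe letters in a short window.

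C4b encodes complement C4, which is cleaved by C1s to build the classical C3 convertase (chromosome 17, 34947354 to 34962912, minus strand). It was 62.3, 50.6 and 107 CPM in WT, 645, 502 and 608 in OVE853 and 253, 201, 304 and 195 in OVE918. The 3 groups did not overlap, with OVE853 highest and OVE918 between. C4b was elevated 7.97-fold in OVE853 (log2 3.00, SE 0.28, FDR 1.04e-04) and 3.25-fold in OVE918 (log2 1.70, SE 0.26, FDR 0.00108). Without WT replicate 3, the highest of its group, the log2 fold changes were 3.37 and 2.08. Of the 100-base windows of its transcript, 16.3% also occur in its copy C4a, which was counted at 0.358 to 2.33 CPM, so some reads may have been divided between them.

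Cfb encodes factor B, the protease subunit of the alternative convertase, and lies in the same region of chromosome 17 (35074852 to 35081559, minus strand). Its level was low in WT, at 3.31, 1.31 and 2.70 CPM, and reached 19.4, 14.4 and 15.4 in OVE853 and 11.8, 9.13, 12.1 and 10.8 in OVE918. Again no library of either line overlapped WT, and every OVE918 library lay below OVE853. It was elevated in OVE853 (log2 2.75, SE 0.27, FDR 1.21e-04) and in OVE918 (log2 2.17, SE 0.26, FDR 2.50e-04). An annotated readthrough gene, Gm20547, holds 63.2% of the windows of its transcript, but that gene has no row in the count table.

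C1ra and C1s1 encode serine proteases of the C1 complex, C1r, which activates C1s, and C1s, which cuts C4, and lie near each other on chromosome 6 (124489364 to 124500402, plus strand, and 124507297 to 124559389, minus strand). C1s1 was 21.9, 28.4 and 23.5 CPM in WT, 38.6, 40.6 and 36.4 in OVE853 and 19.1, 25.4, 20.4 and 18.3 in OVE918. C1ra was 11.0, 12.6 and 16.7 in WT, 22.9, 20.6 and 22.4 in OVE853 and 12.8, 8.19, 13.5 and 10.6 in OVE918. Both genes were above WT in every OVE853 library and overlapped WT in OVE918.

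Neither protease was a DEG. In OVE853 the log2 fold changes were 0.65 for C1s1 (95% confidence interval 0.34 to 0.95, FDR 0.0116) and 0.71 for C1ra (0.28 to 1.13, FDR 0.0324), which passed the FDR but not the minimum fold. In OVE918 they were -0.24 for C1s1 (-0.53 to 0.05, FDR 0.229) and -0.26 for C1ra (-0.66 to 0.15, FDR 0.364). The FPKM ratio of C1s1 to C1ra was 1.44 to 2.30 in WT, 1.66 to 2.02 in OVE853 and 1.53 to 3.17 in OVE918, so the groups overlapped. C1ra shares 34.5% of its transcript windows with C1rb, which was counted at 0.26 to 1.02 CPM. C1s1 shares 7.99% with C1s2, counted at 1.21 to 3.17 CPM, so some reads of either pair may have been divided or dropped.

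Cfi encodes factor I, the plasma protease that inactivates the active fragments of C3 and C4 with the help of cofactors (chromosome 3, 129629533 to 129668981, plus strand). It had the largest log2 fold change of the members tested in each line. Its level was 2.55, 3.04 and 3.16 CPM in WT, from 57 to 90 counts per library, and 124, 85.5 and 128 CPM in OVE853 and 54.6, 46.6, 66.1 and 42.9 in OVE918. Cfi was elevated 38.4-fold in OVE853 (log2 5.26, SE 0.23, FDR 7.08e-07) and 17.9-fold in OVE918 (log2 4.17, SE 0.21, FDR 1.15e-06). When any library was left out, log2 values stayed within 5.15 to 5.43 for OVE853 and 4.04 to 4.25 for OVE918. The FPKM of Cfi was 0.17 to 0.50 times that of C3 in the WT libraries, and 1.17 to 2.01 times in OVE853 and 1.08 to 3.87 times in OVE918, with no overlap between WT and either line.

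Serping1 encodes C1 inhibitor, the serpin that traps C1r and C1s (chromosome 2, 84595705 to 84620873, minus strand). Its level was 64.4, 61.7 and 92.5 CPM in WT, 230, 170 and 196 in OVE853 and 110, 85.3, 115 and 119 in OVE918. It was elevated in OVE853 (log2 1.45, SE 0.18, FDR 5.48e-04), whereas the second OVE918 library lay within the WT range. In OVE918 the log2 fold change of 0.56 (95% confidence interval 0.18 to 0.93, FDR 0.0425) stayed under the minimum fold, and over the alternatives run its FDR ranged from 0.00613 to 0.138.

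Of the membrane regulators, Cd59a encodes a lipid-anchored protein that blocks the terminal pore (chromosome 2, 103926132 to 103947029, plus strand). It was 45.0, 43.0 and 45.6 CPM in WT, 24.7, 26.5 and 27.7 in OVE853 and 29.5, 22.8, 23.4 and 33.1 in OVE918, so that no library of either line reached WT. The log2 fold changes were -0.76 in OVE853 (95% confidence interval -1.06 to -0.46, FDR 0.00522) and -0.71 in OVE918 (-0.99 to -0.43, FDR 0.00286). Both passed the FDR and neither the minimum fold. Its copy Cd59b, with 14.1% of the transcript windows in common, stayed at 1.86 to 3.22 CPM in all libraries.

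Cd55 encodes decay-accelerating factor, which takes apart C3 convertases on the cell's own surface (chromosome 1, 130366469 to 130390926, minus strand). Its level was 2.28, 1.77 and 0.84 CPM in WT, 4.35, 4.26 and 5.11 in OVE853 and 4.50, 3.54, 3.75 and 4.80 in OVE918, which is at most 1.67 FPKM in any library. The WT libraries, with 24 to 51 counts, lay below every transgenic library. With edgeR's own filter in place of the FPKM minimum, Cd55 entered the test and was elevated in OVE853 (log2 1.50, SE 0.33, FDR 0.0149) and in OVE918 (log2 1.37, SE 0.31, FDR 0.0121).

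**Figure D2:**
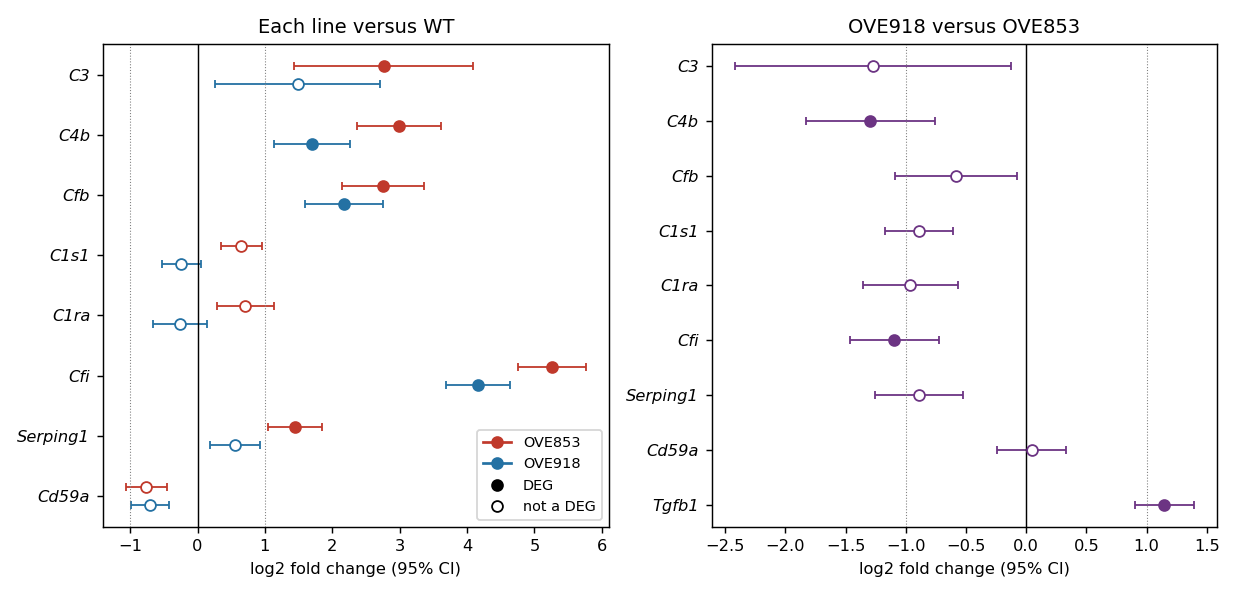
Log2 fold change with its 95% confidence interval for the 8 members tested, each line versus WT on the left and OVE918 versus OVE853 on the right with Tgfb1 added, where filled points are DEGs and dotted lines mark a log2 fold change of 1. Cfi lay at 5.26 and 4.17 on the left, and 7 members lay below 0 on the right while Tgfb1 lay at 1.15.

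By FDR alone, without a minimum fold, 7 members were above WT in OVE853 (8.1% of all genes) and 1 was below (7.68%), and in OVE918 4 were above (8%) and 1 was below (11%). Libraries did not overlap for 7 members that were above WT in OVE853, against 23.4% of all genes, and for 3 that were above WT in OVE918, against 12.3%.

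Between the lines, most members lay lower in OVE918 than in OVE853. Every OVE918 library lay below every OVE853 library for 7 of the 8 members, all but Cd59a, where 16.2% of all genes did so. C4b and Cfi were DEGs, 2 of 8 against 0.415% of all genes lower in OVE918, with log2 fold changes of -1.30 (SE 0.24, FDR 0.0396) and -1.10 (SE 0.17, FDR 0.0218). C1ra (-0.96, FDR 0.0382), Serping1 (-0.89, FDR 0.0382) and C1s1 (-0.89, FDR 0.0180) passed the FDR without the minimum fold, which makes 5 of 8 members lower by FDR alone against 0.937% of all genes. For C3 the difference was -1.28 (95% confidence interval -2.42 to -0.13, FDR 0.185) and for Cfb it was -0.58 (-1.09 to -0.07, FDR 0.176). Cd59a differed by 0.05 (-0.24 to 0.33, FDR 0.847). The order of Tgfb1 was the opposite, with OVE918 above OVE853 by 1.15 on the log2 scale (SE 0.11, FDR 0.00388). The DEG calls of C4b and Cfi did not hold under every alternative. Leaving out OVE853 replicate 1, OVE853 replicate 3 or OVE918 replicate 1 left 0 members called. Of all genes, 5, 6 and 12 were then called lower in OVE918, where 46 were called with all libraries. Leaving out OVE853 replicate 2 or OVE918 replicate 4 left 1 member (9 and 10 of all genes). Leaving out OVE918 replicate 3 gave 3 members (47 of all genes). With any library left out, the log2 fold change stayed at -1.44 to -1.21 for C4b and -1.26 to -0.99 for Cfi.

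**Figure D3:**
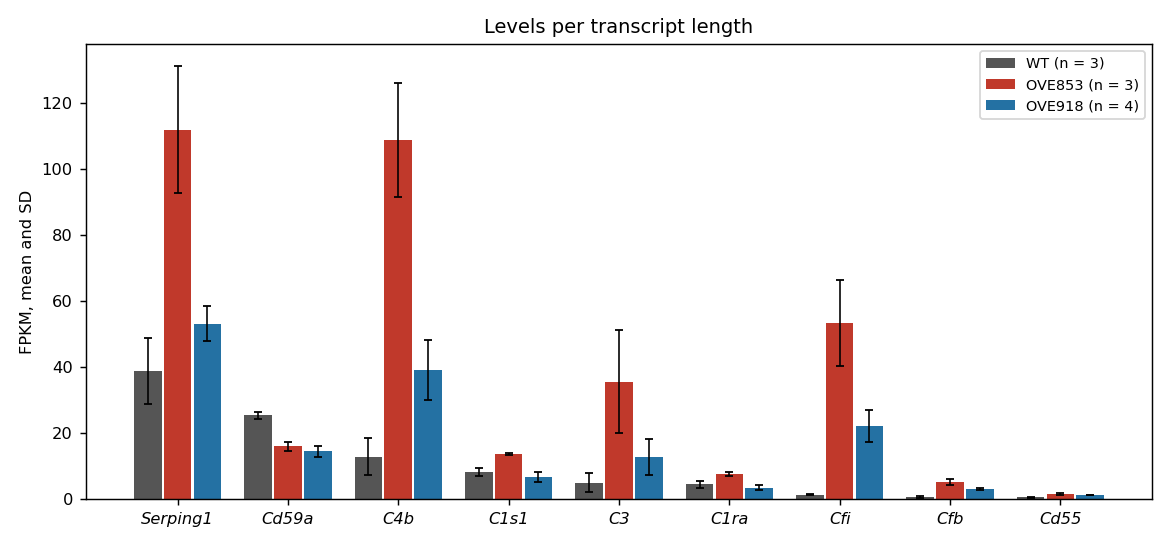
Level of the 9 members per exon length, as mean FPKM with SD as error bars (WT n = 3, OVE853 n = 3, OVE918 n = 4), in the order of the WT means. Serping1 led in every group, at 38.7 FPKM in WT, and Cfi moved from 1.30 FPKM in WT to 53.4 in OVE853.

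Set against each other as FPKM, the members of WT epithelium were led by Serping1 (38.7 ± 10.0, SD, n = 3) and Cd59a (25.3 ± 1.1), both regulators, followed by C4b (12.9 ± 5.5) and C1s1 (8.19 ± 1.32). C3 (4.93 ± 2.96) and C1ra (4.38 ± 1.08) overlapped each other, and Cfi (1.30 ± 0.19), Cfb (0.70 ± 0.28) and Cd55 (0.48 ± 0.20) were lowest. The libraries of C4b and C1s1, of C1s1 and C3, and of Cfb and Cd55 overlapped as well, so these neighbors have no firm order. In OVE853 the order was Serping1 (112 ± 19) and C4b (109 ± 17), which overlapped, then Cfi (53.4 ± 12.9) and C3 (35.6 ± 15.6), which also overlapped, and Cd59a (15.9 ± 1.3). In OVE918 it was Serping1 (53.2 ± 5.4), C4b (39.2 ± 9.1), Cfi (22.1 ± 4.8), Cd59a (14.4 ± 1.7) and C3 (12.8 ± 5.4), of which Serping1 and C4b overlapped, as did Cd59a and C3. C4b was 0.36 to 0.72 times the FPKM of Cd59a in WT libraries, 5.82 to 8.00 times in OVE853 and 1.81 to 3.99 times in OVE918.

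Of 51 other genes of the pathway, 8 passed the FPKM minimum. Of these, 1 of 8 was elevated in OVE853, against 2.51% of all genes, and 1 of 8 in OVE918, against 2.58%, with 0 reduced by edgeR or DESeq2 in either line (0 and 1 below WT with an unadjusted p under 0.05). A gene at 2 FPKM or more only in the 3 WT libraries could not pass the minimum, which limits the count of reduced genes. Vtn, at 13.2 to 29.0 FPKM in WT and at most 0.97 in either line, was left out in this way. The median log2 fold change of the 8 was 0.88 in OVE853 and 0.60 in OVE918, where those of all genes were -0.01 and 0.01. Colec12, a scavenger receptor with a collectin domain, was elevated in OVE853 (log2 1.04, SE 0.24, FDR 0.0178), and 5 of 12 alternatives lost that call. C1qa, which encodes a chain of the C1q recognition molecule, was elevated in OVE918 (log2 1.35, SE 0.41, FDR 0.0446) and had the same log2 fold change in OVE853 at an FDR of 0.0586. The call in OVE918 was lost in 8 of 12 alternatives, each of which left out a library (FDR up to 0.118), and in OVE853 C1qa was called in 4 of 12. Leaving out single libraries gave 0 to 3 DEGs of this list in each line, and without WT replicate 3 there were 2 in OVE853 and 3 in OVE918.

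The remaining genes tested were C1qb and C1qc, the other chains of C1q, Cfp (properdin), Clu (clusterin), Susd4 and Cr1l. C1qa was 5.41, 3.46 and 9.68 CPM in WT, 17.3, 13.1 and 17.0 in OVE853 and 20.4, 8.16, 12.0 and 23.1 in OVE918, so that 1 OVE918 library lay within WT. Its difference between the lines was 0.00 on the log2 scale (95% confidence interval -0.85 to 0.86, FDR 0.997). Clu, at 7181 to 7975 CPM in WT, passed the FDR but not the minimum fold in OVE853 (log2 0.78, FDR 0.00162) and OVE918 (log2 0.70, FDR 0.00132).

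Between the lines 0 of the 8 other pathway genes were DEGs by edgeR or DESeq2, with 1, Colec12, at an unadjusted p under 0.05. The 7 terminal components were all under the FPKM minimum, and C6, C7, C8a, C8b, C9 and Hc had at most 5 counts in any library. The lectins Mbl1, Mbl2 and Colec10 had 0 counts, and so did C4bp of the soluble regulators. C2, which adjoins Cfb on chromosome 17 (35081578 to 35117241, minus strand) and encodes its counterpart in the classical convertase, was 1.38 to 3.05 CPM in WT, 4.04 to 5.59 in OVE853 and 2.49 to 4.50 in OVE918, so that OVE853 did not overlap WT. Vtn, which encodes vitronectin, an inhibitor of the terminal complex, was 37.5, 23.5 and 50.9 CPM in WT and 0.31 to 1.97 CPM in the transgenic libraries. The sum of the 5 markers of ciliary epithelium was also lower in both lines. It was 199 to 325 CPM in WT, 62.1 to 73.7 in OVE853 and 25.1 to 44.7 in OVE918. Among them, Opcml overlapped WT in both lines. Its level was 0.49 to 3.37 CPM in WT, 0.82 to 1.45 in OVE853 and 0.67 to 1.37 in OVE918. Between the lines the marker sum was lower in every OVE918 library. Vtn, by contrast, was 0.31 to 1.18 CPM in OVE853 and 1.04 to 1.97 in OVE918. Best2, Wfdc1 and Slc6a13 of these markers are among the most reduced genes that the study listed for the same libraries. The marker sum is therefore not an independent reading of ciliary cells. The part of ciliary cells in the values of Vtn was not tested.

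With edgeR's own filter in place of the FPKM minimum, 30 of the other pathway genes entered the test. Of these, 3 were elevated in OVE853 (against 3.17% of all genes) and 1 was reduced (3.72%), and in OVE918 5 were elevated (3.45%) and 2 were reduced (5.34%). C4a, the copy of C4b, was elevated in OVE853 (log2 1.60, FDR 0.0128) and in OVE918 (log2 1.24, FDR 0.0233). C4a had at most 63 counts in any library where C4b had up to 21345, and some reads may have been divided between them. C2 was elevated in OVE853 (log2 1.16, FDR 0.0341) and had a log2 fold change of 0.75 in OVE918 (FDR 0.109). Vtn was reduced in both lines (log2 -5.45, FDR 1.01e-04, and log2 -4.52, FDR 4.69e-05). The other genes called in OVE918 that had been under the FPKM minimum were Masp1, a protease of the lectin arm (log2 1.98, FDR 0.0437), C3ar1, the receptor of the C3a fragment (1.49, FDR 0.0318), and Itgb2, an integrin chain of complement receptors on leukocytes (1.89, FDR 0.0358), which were elevated, and Csmd3 (-1.70, FDR 0.0302), which was reduced. Masp1, C3ar1 and Itgb2 had at most 21, 32 and 57 counts in any library, so these calls rest on few reads.

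**Figure D4:**
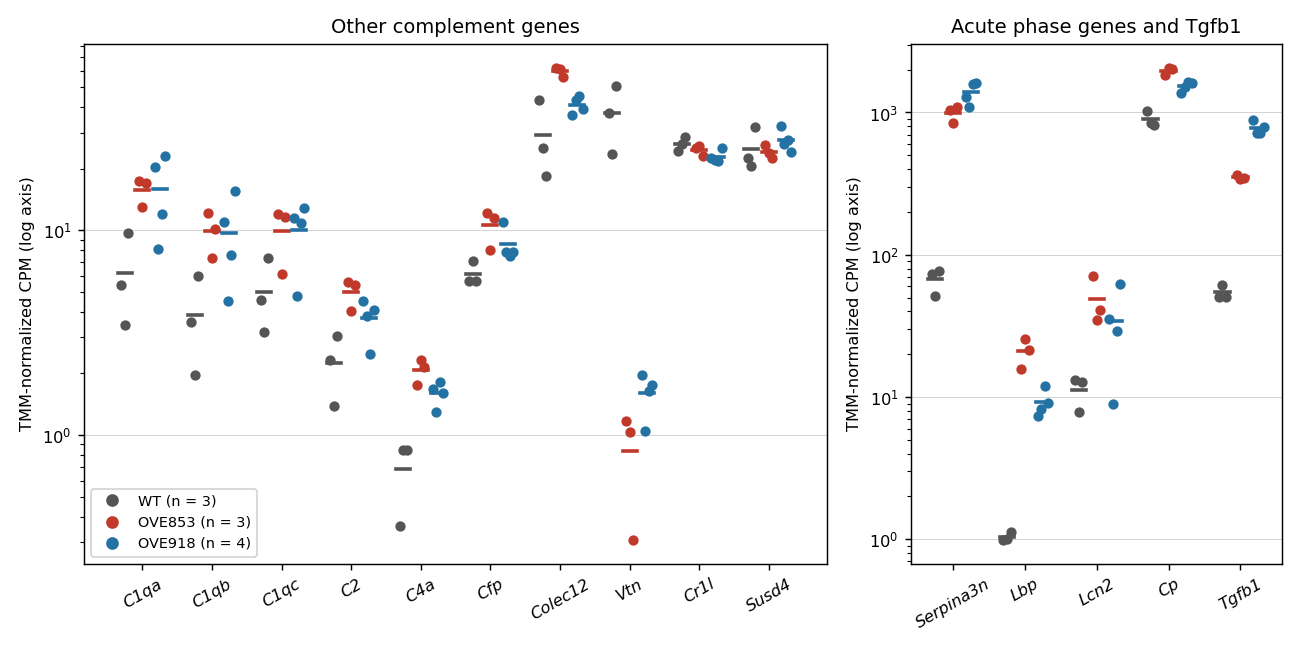
Levels in every library of 10 other complement genes (left) and of the acute phase genes tested with Tgfb1 (right), as TMM-normalized CPM on log axes, where points are libraries and bars are group means (WT n = 3, OVE853 n = 3, OVE918 n = 4). Lbp lay at 0.98 to 1.12 CPM in WT and above 7 CPM in every transgenic library, and Vtn was the gene with the widest gap below WT.

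Complement genes are often induced together with other acute phase genes, and 4 of 18 of those passed the FPKM minimum. All 4 were elevated in OVE853, against 2.51% of all genes, and 2 of them in OVE918, against 2.58%. Their median log2 fold changes were 3.00 and 2.37, beside -0.01 and 0.01 over all genes. Of the 4, Lbp was at 0.36 to 0.44 FPKM in WT and passed the minimum through the transgenic libraries alone. Serpina3n, a serpin of the α1-antichymotrypsin family, was elevated in both (log2 3.89, FDR 2.64e-06, and log2 4.38, FDR 1.15e-06), as was Lbp, the lipopolysaccharide-binding protein (log2 4.33, FDR 3.43e-06, and log2 3.14, FDR 1.21e-05). Lcn2, an iron-sequestering lipocalin, was elevated in OVE853 (log2 2.12, FDR 0.0473) and did not pass in OVE918 (log2 1.59, FDR 0.0886), and of the alternatives that left out a library 8 lost the call in OVE853. Cp (ceruloplasmin) was elevated in OVE853 (log2 1.14, FDR 2.22e-04) and had a log2 fold change of 0.77 in OVE918 (FDR 0.00104). Lbp was lower in OVE918 than in OVE853 (log2 -1.18, SE 0.19, FDR 0.0250), as Cfi and C4b were, whereas Serpina3n differed by 0.49 (FDR 0.159).

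Over the 10 libraries, which fall into the 3 groups, the genes with the most similar profile were named for each DEG among the members, by Pearson's r of log2 CPM over 11093 other genes. For Cfi these were Myl9, a myosin regulatory light chain (0.994), Tha1 (0.993) and Syne4 (0.992). For Cfb they were Gpr153 (0.972), the collagen gene Col27a1 (0.971) and Scara3 (0.970). C4b had Icam1, a leukocyte adhesion molecule (0.970), St6galnac2 (0.969) and Csf1, the macrophage growth factor (0.958). C3 had Serping1 (0.964), the interferon-induced Ifitm1 (0.964) and Icam1 (0.941), and Serping1 had Ifitm1 (0.968), C3 (0.964) and C4b (0.952). Among the members themselves r was 0.839 to 0.964 for pairs of C3, C4b, Cfb, Cfi and Serping1. It was 0.259 to 0.770 for C1s1 or C1ra with these members, and 0.742 for C1s1 with C1ra. For Cd59a with the other members tested it was -0.143 to -0.911. C3, C4b, Cfb, Cfi and Serping1 are the members called elevated in OVE853, so high r among them partly follows from that choice. Over libraries of 3 groups, r cannot tell a shared group difference from a link within groups, which was not tested.

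Markers of other cell types moved with some of these values. The 10 macrophage markers summed to 13.2 to 30.6 CPM in WT, 34.4 to 51.3 in OVE853 and 24.2 to 48.1 in OVE918, with none at 0 counts in any library, and only 1 of the 10 reached the FPKM minimum, which was not a DEG in either line. Cd68 and Mpeg1 lay above WT in every transgenic library, and the other markers overlapped WT in at least 1 line. Csf1r overlapped it in both, at 4.85 to 12.4 CPM in WT, 9.15 to 14.3 in OVE853 and 6.33 to 11.2 in OVE918. Within OVE918, C3, Cfb, C1ra, Serping1, Cd59a and Cd55 were lowest in replicate 2, and Cfi, C4b and C1s1 in replicate 4. Replicate 2 was the lowest of its group in macrophage markers (24.2 CPM) and also in those of lens epithelium, lens fiber, retina and erythrocytes, among others. In fibroblast markers replicate 2 was the highest of its group (794 CPM). Replicate 4 was the highest of its group in macrophage markers (48.1 CPM) and also in those of endothelium, erythrocytes and lens fiber, among others. In markers of fibroblasts (541 CPM) and ciliary epithelium (25.1 CPM) replicate 4 was the lowest. The 5 fibroblast markers summed to 317 to 592 CPM in WT, 948 to 1046 in OVE853 and 541 to 794 in OVE918, which was nearly all Pdgfra and Col6a3. Col6a3, a collagen VI chain, was elevated in both lines (log2 1.80, FDR 0.00348, and log2 1.19, FDR 0.0150) and Pdgfra in neither, while Dcn was 0.73 to 2.35 CPM in WT, 0.26 to 0.61 in OVE853 and 0.19 to 1.20 in OVE918, and Lum and Dpt stayed under 1 CPM. The 6 endothelial markers summed to 5.19 to 8.59 CPM in WT, 9.34 to 23.5 in OVE853 and 12.1 to 24.5 in OVE918, and Cldn5, the 1 of them tested, was elevated in OVE918 (log2 2.01, FDR 0.0385). Of the 4 hepatocyte markers none reached the FPKM minimum, and their sum was 7.16 to 51.5 CPM in WT and at most 2.31 CPM in the transgenic libraries. The WT sum was nearly all Ttr (7.08 to 51.1 CPM), whereas Alb was 0.038 to 0.67 CPM in WT, 0.091 to 0.19 in OVE853 and 0.13 to 1.75 in OVE918, Apoa1 stayed under 1 CPM, and Serpina1a had 0 counts in 9 of 10 libraries. The part of these cells in the complement values was not tested. Without WT replicate 3 the number of members elevated was 5 in OVE853 and 3 in OVE918, and without OVE918 replicate 2 it was 5 and 4.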

How the data were processed

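RNA of 10 pools of mouse lens epithelium was sequenced as paired reads. Per the labels and the methods of the study, Cutadapt 5.2 was used for trimming, STAR 2.7.11b for alignment to GRCm39 and featureCounts 2.0.8, set to reverse strand, for read pairs per RefSeq gene. The authors deposited the raw counts, 1 column per library. The submitters' processing notes also name edgeR 4.6.3.

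Counts were fitted in R 4.3.3 with edgeR 4.0.16 (TMM, robust quasi-likelihood, all 3 groups in 1 fit), with Benjamini-Hochberg adjustment over the 11094 genes that had at least 2 FPKM in 5 of 10 libraries, and limma 3.58.1 and DESeq2 1.42.0 were used beside it. FPKM was computed from unscaled totals and the joined exons of transcripts tagged Primary in GENCODE vM39, found by symbol for 43252 genes and by synonym for 22. The 7489 genes without a length did not enter the test. Positions are of GRCm39, and promoter sequences are of RefSeq in GRCm38.p6. Total counts of 24073311 to 31908525 per library and the spread between pools limit the precision, and replicate libraries of a group differed by more than sampling noise (chi-square per degree of freedom of at least 12.8). Intervals of fold changes are at 95% from the fit. Pools were called biological replicates in the labels. The steps were tested on simulated data.

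The members and the lists of genes were chosen with earlier results of these data known. All 9 members are named, other listed genes where they were DEGs in at least 1 line, and for each DEG among the members the 3 tested genes of highest r (prior count of 2). Other pathway genes that were tested or are given with their levels were added after their values were seen. Some genes of the pathway list enter its counts but are not reported here by name. Alternatives comprised other low-expression filters, exon lengths of all transcripts, upper-quartile normalization, DESeq2, fits without robust estimation or with just the libraries of a comparison, the replicate number or the R number (a number in the library names) as a term, FDR alone and leaving out each library.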

Additional observations from a re-analysis of the deposited data

Results flagged for a closer look

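Several values differed between the lines by the test of OVE918 against OVE853 (edgeR's quasi-likelihood test, adjusted over all genes). Cfi was lower in OVE918, by -1.10 on the log2 scale (FDR 0.0218), and all 4 OVE918 libraries lay below the 3 OVE853 libraries. C4b was lower by -1.30 (FDR 0.0396), also in 4 of 4 libraries. Lbp, of the acute phase genes, was lower by -1.18 (FDR 0.0250). Tgfb1 was higher in OVE918, by 1.15 (FDR 0.00388). In the 15 groups of 4 OVE918 libraries examined for a library far from the others, 0 were found.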

How the results depend on the processing

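Over the 45 log2 fold changes recomputed, 708 of 756 alternative values kept their direction and their side of the threshold, 37 were no longer called, 11 became called and 0 called values turned direction. Members called by FDR alone numbered 8 in OVE853, 5 in OVE918 and 5 between the lines. Between the lines 1 member was called with edgeR's filter for low counts or with no filter beyond 1 count, and C4b lost its call there (FDR 0.0532 and 0.0525), where more genes were tested. Leaving out 1 library gave 4 to 5 members in OVE853, 3 to 4 in OVE918 and 0 to 3 between the lines. For the other pathway genes it gave 0 to 3 in each line, edgeR's filter gave 4 in OVE853 and 7 in OVE918 of 30 tested, and DESeq2 gave 3 and 2. For acute phase genes it gave 3 to 4, 2 to 3 and 0 to 1 between the lines. Except for the filters, the cause was not tested. C3 in OVE918 was called with DESeq2 (1.50, FDR 0.0219) and with the R number as a term (1.64, FDR 0.0324). The deviations of same-numbered libraries had correlations of -0.303 to 0.0838 in 9 pairings, none over 0.1, so the replicate numbers do not pair the samples. With a replicate block on the libraries numbered 1 to 3, 5, 4 and 2 members were called, and in the same libraries without the block, a fit added after seeing the data, 5, 3 and 1. Identity between the proteins of near copies was not run, and the share of transcript windows was given in its place, a choice made after seeing the data, as were the values of genes under the FPKM minimum and the alternatives for the acute phase list. Depth limits Cd55 and Cfb in WT most, at 24 to 77 counts.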
